A study of Sus scrofa with 6 samples.

Results

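The 10 imprinted genes IGF2, IGF2R, PEG3, PEG10, MEST, CDKN1C, GRB10, DLK1, PLAGL1 and NNAT were followed by their gene symbols in the expression table of pig 4-cell embryos, which held 30376 genes. All 10 symbols were found, each once. Poly(A) RNA had been sequenced in 6 libraries from embryos grown from oocytes that were activated by electric pulses (120 V, 60 µs each) instead of sperm. In the control group (3 libraries) culture in IVC medium ran for 4 days at 38.5 °C, and in the high-temperature group (3 libraries) it ran for 4 days at 41.5 °C, both under 5% CO2. The genotype label reads WT for the control libraries and HT for the heated ones, with no allele named. The labels mention about 300 pooled 4-cell embryos but not whether this is per library, and they do not call the replicates separate cultures, so the spread between libraries may be technical.

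An imprinted gene is transcribed mainly from the copy of a single parent, because DNA methylation set in the egg or the sperm differs between the parental copies. IGF2, PEG3, PEG10, MEST, DLK1, PLAGL1 and NNAT are known in mammals as genes of the paternal copy, and IGF2R and CDKN1C as genes of the maternal copy. GRB10 is transcribed from the maternal copy in most tissues of the mouse. An electrically activated oocyte has no paternal genome, so its embryo carries maternal copies only. Such embryos are known to stop developing early in gestation, and the missing products of paternally expressed genes are part of the reason known from the mouse. A measured transcript at the 4-cell stage can come from the embryo's genome or be left over from the oocyte, and these RNA counts do not separate the sources.

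The set was chosen with the temperature comparison already known: the members were chosen by these same libraries, IGF2 for CPM that were higher in each of the 3 heated libraries. Differences between temperatures are therefore given for all 10 genes as descriptions with no test. The total was 28114005 to 30079385 counted reads per library, so a single read was worth 0.0332 to 0.0356 CPM (reads scaled to the library size). The 14 markers of oocyte and cleavage-stage embryo were all detected, led by DPPA3 (1756 TPM on average) and BMP15 (462 TPM), and summed to between 3512 and 5555 CPM in controls and to between 3181 and 4098 CPM in heated libraries. Markers of other cells were low. The 15 cumulus and granulosa cell markers in the table, led by TNFAIP6 (1.80 TPM) and VCAN (0.822 TPM), summed to between 9.83 and 16.6 CPM in controls and to between 9.32 and 11.5 CPM in heated libraries. Of these 15, FSHR, INHA, AMH, FOXL2, CYP11A1 and NR5A1 had 0 reads in every library. The 14 markers of stromal, endothelial and blood cells, led by PECAM1 (2.05 TPM) and COL1A2 (0.674 TPM), summed to between 11.03 and 14.4 CPM in controls and to between 11.3 and 12.5 CPM in heated libraries, with LUM, CDH5 and CSF1R at 0 reads. In such pooled RNA, fewer cells with a transcript and less transcript per cell cannot be told apart.

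Levels spanned a wide range among the 10 genes. They are compared here in TPM, the authors' length-scaled unit, over all 6 libraries. MEST, which encodes a hydrolase-like protein of mesoderm, was the most abundant at 27.2 ± 6.05 TPM (SD, n = 6), a level that 15.0% of the 16056 genes with enough reads to be tested exceeded. PLAGL1, a zinc-finger transcription factor that restrains cell growth, was at 7.57 ± 2.36 TPM. PEG10, a gene derived from a retrotransposon and needed in the mouse placenta, was at 7.56 ± 2.31 TPM. CDKN1C, the cyclin-dependent kinase inhibitor p57, was at 6.07 ± 1.66 TPM. These were the 4 genes above 1 TPM.

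The other 6 lay far lower. IGF2, a secreted growth factor of the fetus, was at 0.254 ± 0.161 TPM (SD, n = 6). PEG3, a large zinc-finger protein, was at 0.202 ± 0.0721 TPM. IGF2R, the receptor that takes IGF2 to the lysosome, was at 0.0761 ± 0.0214 TPM. GRB10, an adaptor that dampens insulin and IGF receptor signalling, was at 0.0551 ± 0.0349 TPM. NNAT, a small membrane proteolipid, was at 0.0168 ± 0.0309 TPM. DLK1, a membrane ligand of the Notch family, had 0 reads in all 6 libraries, which over their 173662289 reads allows up to 0.0173 CPM (3 counts, counting error only).

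Neighbours in this order were not all separated. The range of MEST over the 6 libraries lay wholly above that of PLAGL1, that of CDKN1C above that of IGF2, and that of PEG3 above that of IGF2R. PLAGL1 and PEG10 could not be ordered, since PLAGL1 was the higher in 2 of 6 libraries, and PEG10 exceeded CDKN1C in 5 of 6 with overlapping ranges. IGF2 exceeded PEG3 in 4 of 6 libraries, and the order of their means turned between the groups. IGF2 was barely the higher in control replicate 3 as well (0.1165 against 0.1156 TPM), and it was chosen for its higher heated values. The means in controls were 0.113 TPM for IGF2 and 0.219 TPM for PEG3, and in heated libraries 0.395 and 0.186 TPM. The ranges of the next pair overlapped too, since IGF2R exceeded GRB10 in 4 of 6.

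**Figure D1:**
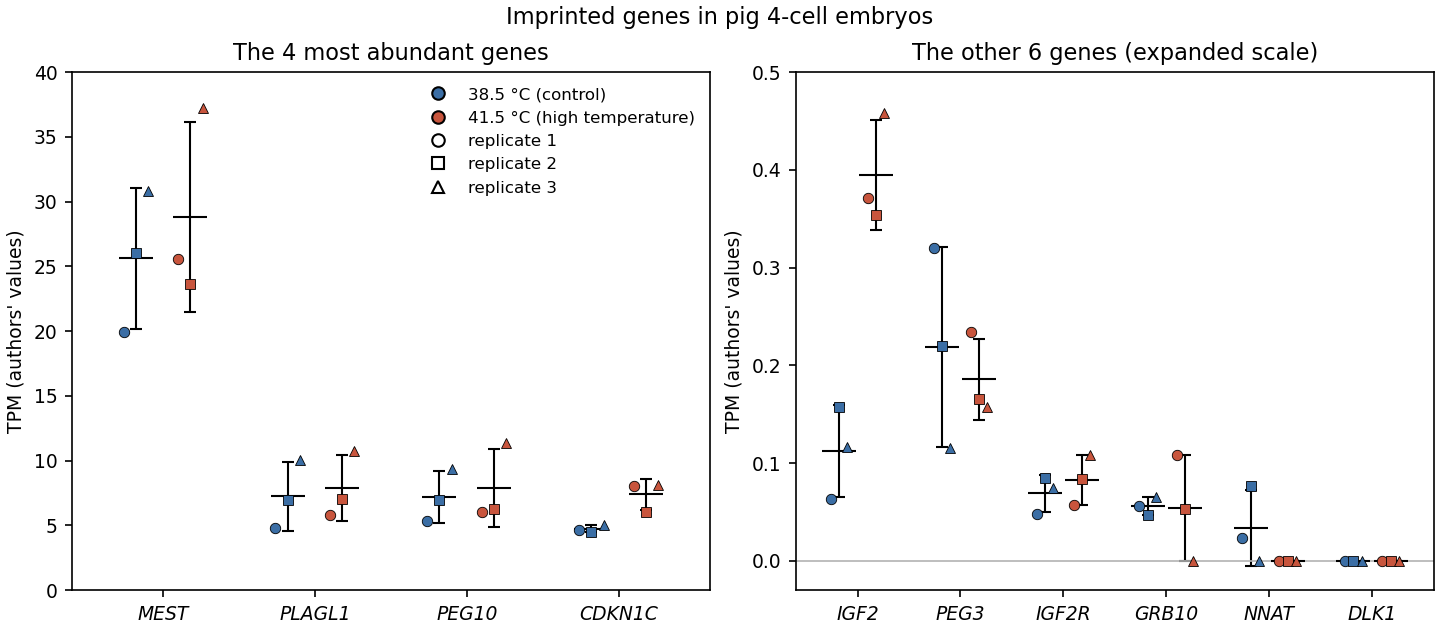
TPM of each of the 10 imprinted genes in every library, with the group mean and SD (n = 3) as black bars; blue is 38.5 °C, red is 41.5 °C, and the right panel has an expanded scale. MEST lies above all the others, and the red points of CDKN1C and IGF2 lie above their blue points without overlap.

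Of the 10 genes, 8 passed the filter on low counts, and DLK1 and NNAT did not. None of these 8 was called by edgeR's quasi-likelihood test with Benjamini-Hochberg adjustment over all genes. The share called over all 16056 genes was 0% higher and 0% lower, with 297 genes at an unadjusted p under 0.05, and DESeq2 called 5 genes, none of them among the 10. The log2 fold change, high temperature against control, was above 0 for 6 of the 8 and below 0 for 2, with a median of 0.07. Over all genes tested it was above 0 for 47.5%, with a median of -0.02. Without high-temperature replicate 3 the median of the imprinted genes was -0.03, with 4 above 0 and 4 below. It was 0.19 without control replicate 3, 0.25 without high-temperature replicate 1 and 0.15 without high-temperature replicate 2.

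The growth factor IGF2 (chromosome 2, 1469183 to 1496417, minus strand, Sscrofa11.1, with 17 annotated transcripts and no overlapping gene) had few reads in every library. It had 8, 17 and 13 reads in the control libraries and 42, 38 and 48 reads in the heated ones, or 0.308, 0.586 and 0.432 CPM against 1.44, 1.32 and 1.57 CPM. The lowest heated library was 2.25 times the highest control. The means were 0.442 ± 0.139 CPM and 1.44 ± 0.125 CPM (SD, n = 3), 3.26-fold higher at 41.5 °C, with a log2 fold change of 1.69 (95% interval 0.85 to 2.54). The cumulus and granulosa cell markers, 9 of 15 with reads, summed to between 9.83 and 16.6 CPM in controls and to between 9.32 and 11.5 CPM in heated libraries, with VCAN giving the most reads of them. Within that list HSD3B1, a steroid-making enzyme gene, had 0, 0 and 4 reads in controls and 5, 11 and 5 when heated. LHCGR also had a higher mean CPM when heated, from 5 reads in high-temperature replicate 1 alone. The mean CPM of CYP19A1, STAR, PTX3, TNFAIP6, AMHR2, VCAN and GJA1 were lower when heated. GJA1 had 8, 8 and 2 reads in controls and 0 in each heated library. The part of such cells in the IGF2 difference was not tested. On the log2(TPM + 1) scale the difference was 0.33, since the levels are far under the pseudocount of 1.

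CDKN1C, which slows the cell cycle and restrains fetal growth, also had groups that did not overlap. It lies on the same chromosome (chromosome 2, 2019391 to 2022092, minus strand, 1 annotated transcript). Its reads numbered 206, 186 and 205 in controls and 340, 249 and 325 in heated libraries, or 7.92, 6.41 and 6.81 CPM against 11.6, 8.65 and 10.6 CPM. The gap was narrow, the lowest heated library being 1.09 times the highest control. The means were 7.05 ± 0.785 and 10.3 ± 1.52 CPM (SD, n = 3), 1.46-fold higher, with a log2 fold change of 0.55 (95% interval 0.03 to 1.07). IGF2 and CDKN1C were thus the 2 of 8 tested members that were higher in every heated library, as were 3.66% of all genes tested. IGF2 was chosen for this property, so it counts for nothing here or among the intervals below, which leaves CDKN1C with its narrow gap. No member was lower in every heated library, as were 4.05% of all genes. The same 2 were so on the scale of the library total and in TPM. Their 95% intervals lay above 0, as did those of 0.99% of all genes. No member had an interval below 0 (0.859% of all genes), and over both directions the share of all genes was 1.85%. MEST came nearest among the genes whose groups overlapped, with its lowest heated library at 0.806 times its highest control.

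**Figure D2:**
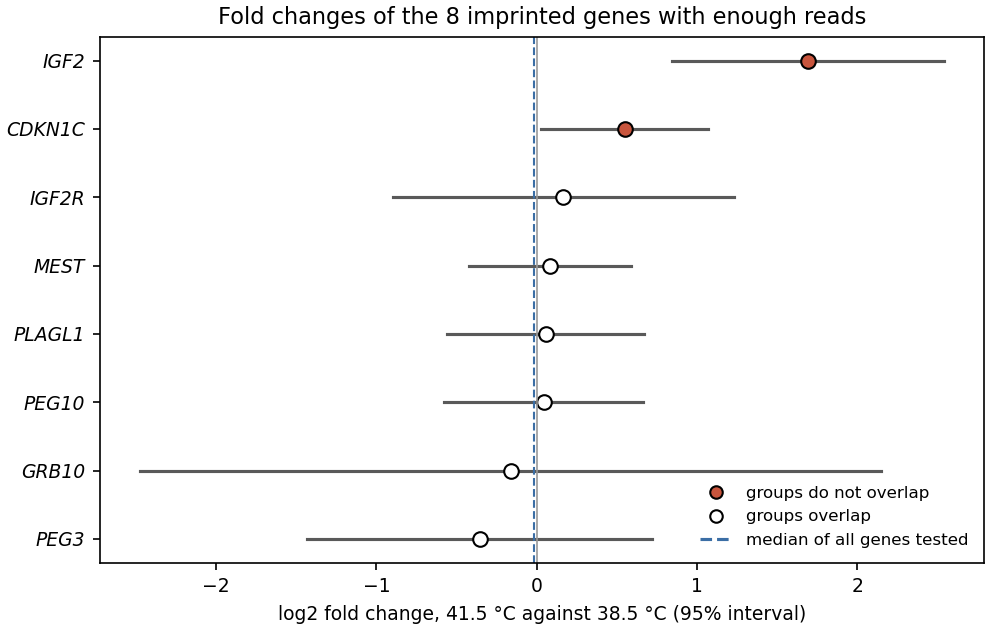
Log2 fold change at 41.5 °C against 38.5 °C for the 8 imprinted genes with enough reads, with 95% intervals from the edgeR fit; filled points mark genes whose groups do not overlap. IGF2 (1.69) and CDKN1C (0.55) lie above 0, and the other 6 intervals hold 0.

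The abundant paternally expressed genes had nearly equal means at both temperatures. MEST (chromosome 18, 18319126 to 18358655) was at 47.6, 56.7 and 64.2 CPM at 38.5 °C, and at 54.3, 51.7 and 72.7 CPM in the 41.5 °C libraries, a log2 fold change of 0.08 (95% interval -0.42 to 0.59). PEG10 (chromosome 9, 74474121 to 74486983) was at 31.4, 34.2 and 43.8 CPM at 38.5 °C, and at 30.3, 31.2 and 51.3 CPM when heated, a log2 fold change of 0.04 (-0.58 to 0.66). PLAGL1 (chromosome 1, 21299830 to 21371070, with 29 annotated transcripts) was at 25.7, 32.4 and 38.1 CPM at 38.5 °C, and at 23.9, 33.6 and 42.5 CPM when heated, a log2 fold change of 0.06 (-0.56 to 0.67). In all 3 genes the groups overlapped, and the upper bounds lay below a doubling on the log2 scale.

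Replicate 3 of either temperature held the highest level of all 3 genes within its group. Their deviations from the group means, in log2 CPM, were 0.20, 0.28 and 0.27 in control replicate 3 for MEST, PEG10 and PLAGL1, and 0.30, 0.49 and 0.39 in high-temperature replicate 3. In control replicate 1 they were -0.23, -0.20 and -0.30. PEG3 deviated the other way, by 0.84 in control replicate 1 and -0.89 in control replicate 3, and by 0.39 and -0.27 in the same-numbered heated libraries. Over the 6 libraries these deviations had a Pearson r of 0.95 between MEST and PEG10, 0.82 between MEST and PLAGL1 and -0.75 between MEST and PEG3. The genes were read in the same 6 libraries and may share effects of depth or RNA quality. RNA quality was not examined here, so this is a description only. Control replicate 1 and high-temperature replicate 3 were also the libraries with the lowest and the highest TMM scaling factor (0.865 and 1.09), and its part in these deviations was not tested. For IGF2 the r to MEST was 0.57 and for CDKN1C it was -0.06.

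**Figure D3:**
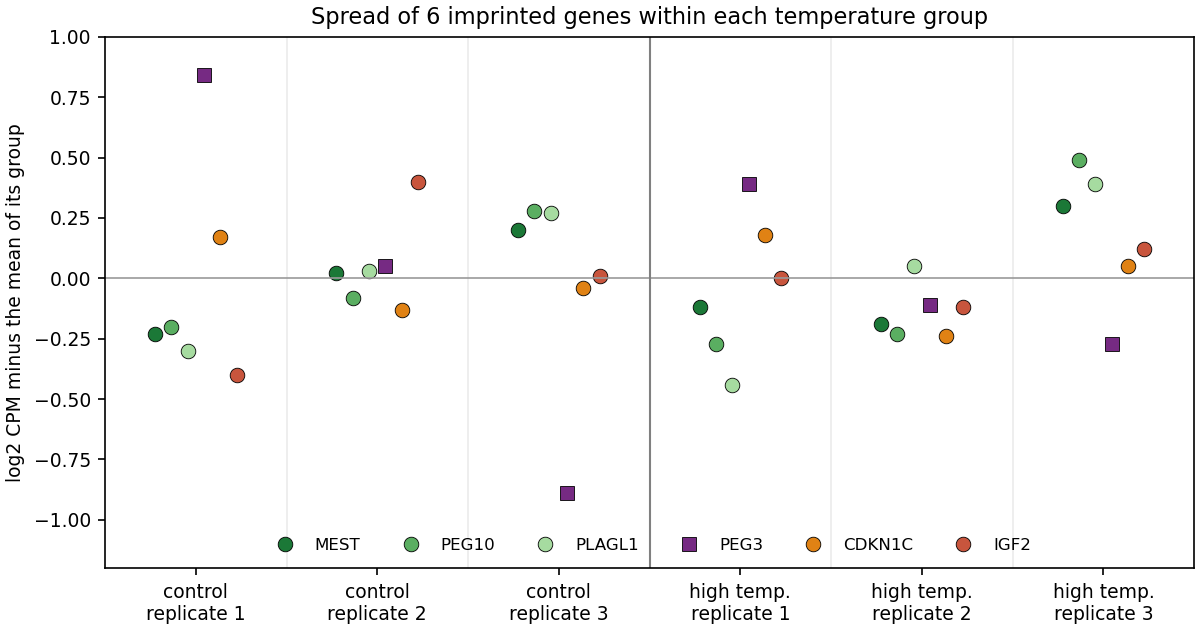
Deviation of 6 imprinted genes from the mean of their own temperature group in each library, in log2 CPM. MEST, PEG10 and PLAGL1 (green circles) lie above 0 in replicate 3 of both groups and PEG3 (purple squares) below it; in control replicate 1 the order is the opposite.

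The remaining members had few reads. PEG3 (chromosome 6, 61281931 to 61307788) had 73, 46 and 24 reads in controls and 51, 35 and 33 in heated libraries. Its log2 fold change was -0.35 (95% interval -1.43 to 0.72), and without control replicate 1 it was 0.18. IGF2R (chromosome 1, 7369485 to 7472480) had 9, 14 and 13 reads in controls and 10, 14 and 18 when heated, a log2 fold change of 0.17 (-0.90 to 1.23). GRB10 (chromosome 9, 136580363 to 136742552) had 11, 6 and 10 reads in controls and 19, 6 and 0 when heated. Its interval of -2.48 to 2.15 holds a 4-fold change in either direction, and the heated libraries differed widely among themselves. NNAT (chromosome 17, 40625990 to 40629523) had 2, 4 and 0 reads in controls and 0 in each heated library, too few to compare the temperatures. DLK1 (chromosome 7, 121565844 to 121577493) had no read at either temperature.

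The overlap of gene spans makes the values of MEST and NNAT less certain, because the library kit does not mark strand. The span of MEST shares 12411 bases with that of COPG2, a coatomer subunit gene on the opposite strand, whose level was 69.0 ± 14.6 CPM at 38.5 °C and 63.3 ± 17.0 CPM at 41.5 °C (SD, n = 3). NNAT lies wholly within BLCAP, another imprinted gene on the opposite strand, which was at 20.8 ± 2.92 and 23.2 ± 2.12 CPM. The other 8 members overlapped no counted gene.

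IGF2 and CDKN1C lie 523 kb apart on chromosome 2, in the stretch that in humans and mice holds a large imprinted cluster with separate control regions for the IGF2 and the CDKN1C side. The genes from IGF2 to OSBPL5, the last imprinted gene of that cluster in the lists used here, were therefore described together. The stretch was chosen after the values were seen, so its counts carry no test. It spans 793 kb and 22 annotated genes, of which 7 had no read, 4 had too few and 11 were tested, with 0 called. Of these 11, 10 had a log2 fold change above 0 and 1 below, against 47.5% above 0 over all genes. In 7 of the 11 every heated library exceeded every control, against 3.66% over all genes. Since IGF2 and CDKN1C prompted the choice of the stretch, they count for nothing here. Of the other 9 tested genes, 8 were above 0 and 1 below, and 5 were higher in every heated library. The 7 were IGF2, LOC110259223, CDKN1C, NAP1L4, CARS, LOC100627067 and LOC102158193. Of these, LOC110259223 (0, 4 and 3 control reads) and LOC102158193 (9, 6 and 10) passed the filter on low counts only because of their heated libraries. They were thus tested because they were higher when heated, and they count for nothing here either. On the library-total and TPM scales there were also 7, with PHLDA2 in place of CARS, against 5.24% and 4.96% of all genes.

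Among these neighbours the ratio was largest for LOC110259223, an uncharacterized lncRNA inside the span of KCNQ1 and on its opposite strand (chromosome 2, 1794543 to 1823381). It had 0, 4 and 3 reads in controls and 25, 13 and 32 in heated libraries, or 0.0792 ± 0.0712 against 0.785 ± 0.304 CPM (SD, n = 3), a log2 fold change of 3.21 (95% interval 1.39 to 5.03). KCNQ1OT1 is a known imprinted antisense RNA transcribed from within KCNQ1, but no row carries that name and the lncRNA was not matched to it. KCNQ1, a potassium channel gene, had 5, 0 and 19 reads in controls and 10, 0 and 9 when heated. Reads of the overlapping pair cannot be told apart by strand, and their summed reads were 5, 4 and 22 in controls and 35, 13 and 41 when heated, which overlap.

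On the CDKN1C side, PHLDA2, a growth-restraining gene of the placenta, had 601, 668 and 764 reads in controls and 1314, 799 and 765 when heated, at 23.8 ± 1.32 and 32.6 ± 10.8 CPM. High-temperature replicate 1 alone was far above the rest. NAP1L4, a histone chaperone gene, was at 29.3 ± 1.05 and 33.2 ± 2.64 CPM, 1.13-fold higher. CARS, a cysteinyl-tRNA synthetase gene, was at 1.16 ± 0.236 and 1.60 ± 0.303 CPM. LOC100627067 and LOC102158193, annotated as members of the tumor necrosis factor receptor family, averaged 0.814 ± 0.173 and 0.295 ± 0.0767 CPM at 38.5 °C, against 1.46 ± 0.111 and 0.603 ± 0.204 CPM at 41.5 °C. The other tested genes, SLC22A18, CD81 and TSSC4, had overlapping groups and log2 fold changes of -0.04 (-2.87 to 2.79), 0.18 (-2.68 to 3.03) and 0.63 (-1.70 to 2.97). INS, TH, ASCL2 and OSBPL5 had 0 reads in all libraries, as did LOC110259219, the annotated lncRNA nearest to IGF2 on its other side. Outside the stretch the nearest tested genes, MRPL23 and SHANK2, had overlapping groups and log2 fold changes of -0.39 (-2.01 to 1.23) and -0.13 (-0.71 to 0.45). Next to these, MOB2 had 0.99 (-1.21 to 3.19), TNNT3 -0.22 (-1.31 to 0.86), CTTN 0.34 (-0.31 to 0.98) and PPFIA1 -0.05 (-0.76 to 0.66), all with overlapping groups.

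**Figure D4:**
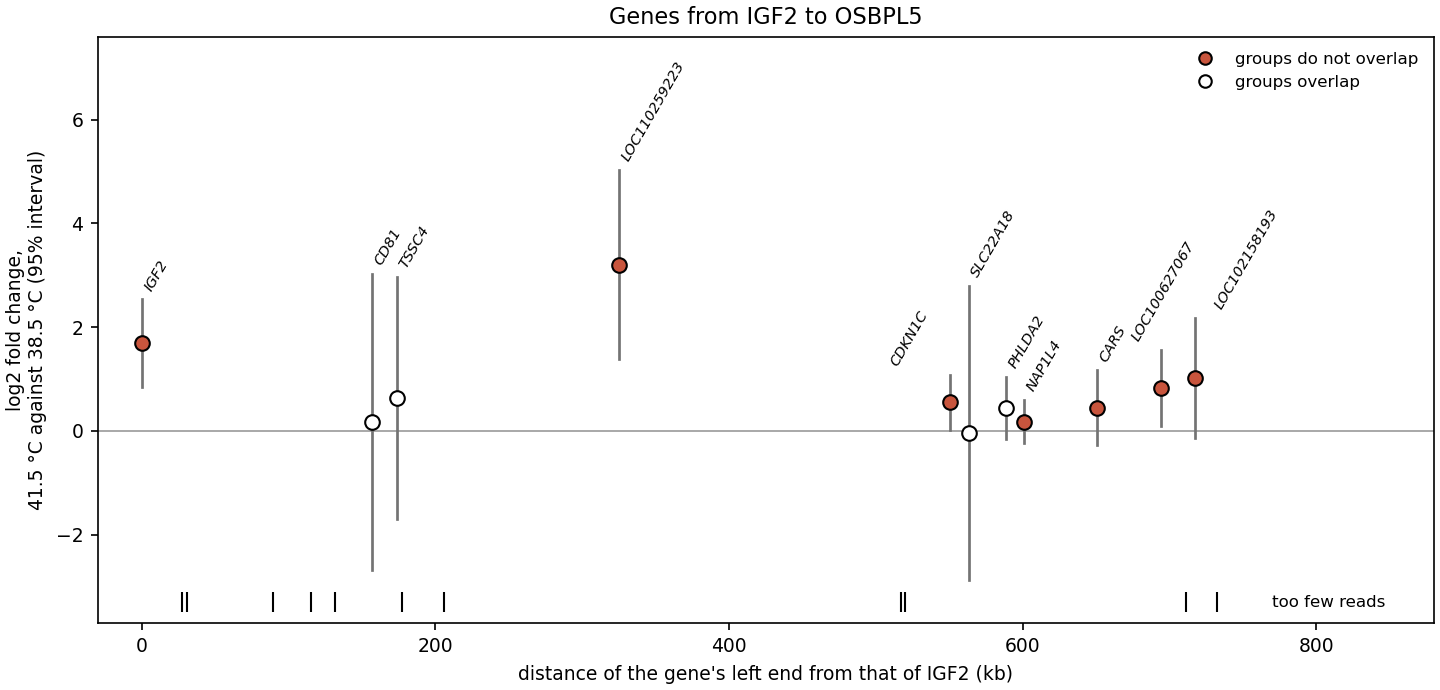
Log2 fold change at 41.5 °C against 38.5 °C, with 95% intervals, of the genes from IGF2 to OSBPL5 by their distance from IGF2; filled points mark genes whose groups do not overlap and ticks mark genes with too few reads. Of the 11 points 10 lie above 0, the highest being LOC110259223 (3.21).

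Genes beside other members were described too, with no test of a difference from the stretch on chromosome 2. SGCE, the sarcoglycan gene that is transcribed away from PEG10 across a gap of 0.216 kb and is imprinted with it, averaged 19.98 ± 2.14 CPM at 38.5 °C and 16.6 ± 0.696 CPM when heated, lower in every heated library, with a log2 fold change of -0.27 (95% interval -0.71 to 0.18). ZIM2, a zinc-finger gene of the PEG3 cluster, was at 38.2 CPM in controls and 36.2 CPM when heated on average, and its level of 11.3 TPM was far above the 0.202 TPM of PEG3. BEGAIN, RTL1 and MEG3, of the DLK1 cluster, had 0 reads throughout, like DLK1. Of the genes next to the other members, COBL, beside GRB10, had a log2 fold change of 0.76 (-0.45 to 1.98). SF3B5 and ZC2HC1B, on either side of PLAGL1, had -0.26 (-1.61 to 1.09) and -0.04 (-0.68 to 0.60), and LOC100522375, beside PEG3, had -0.65 (-1.77 to 0.47). BLCAP, around NNAT, had 0.15 (-0.32 to 0.63). The groups of these 5 genes overlapped, and the genes next to IGF2R and MEST had too few reads.

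Other imprinted genes were described from lists written with earlier results of these data known. Of 23 listed genes that are paternally expressed in at least 1 mammal and present in the table, 11 were tested and 0 called. Of these, 6 had a log2 fold change above 0 and 5 below, with a median of 0.04. SNRPN, a splicing protein gene of the Prader-Willi cluster, was the most abundant at 128 ± 25.1 TPM (SD, n = 6), followed by INPP5F, SGCE and ZIM2. L3MBTL1, a Polycomb-related gene, had 11, 10 and 6 reads in controls and 25, 19 and 26 when heated, a log2 fold change of 1.29 (95% interval 0.23 to 2.34, adjusted p = 0.999923 with edgeR). L3MBTL1 and SGCE were the 2 of these 11 with groups that did not overlap, against 7.71% of all genes in either direction. L3MBTL1 passed the filter on low counts only because of its heated libraries, so it counts for nothing in this share.

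Of 30 listed genes that are maternally expressed in at least 1 mammal and present, 20 were tested and 0 called, with 9 above 0, 11 below and a median of -0.03. The most abundant were PHLDA2 (49.3 TPM), the ubiquitin ligase gene UBE3A (34.3 TPM), the paraoxonase gene PON2 (33.3 TPM) and ASB4 (24.2 TPM). NAP1L4, given above, was the 1 of these 20 with groups that did not overlap, no larger a share than the 7.71% of all genes. MEG3, KLF14 and ASCL2 had no read, and H19 was not found by symbol.

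In the IGF and insulin axis, which carries the signal of IGF2 from ligand to the kinase AKT, 45 genes were listed and found. Of these 33 were tested and 0 called, with 21 above 0, 12 below and a median log2 fold change of 0.07. All ligands were absent or scarce, INS with 0 reads and IGF1 with 3 to 14 reads per library. IGF2 itself had 8 to 17 reads in the control libraries and 38 to 48 in the heated ones. IGF1R, the receptor through which IGF2 signals, was at 4.40 ± 1.47 CPM in controls and 6.09 ± 1.86 CPM when heated (SD, n = 3), with overlapping groups. IGFBP1, IGFBP3, IGFBP4 and IGFBP5, proteins that bind IGFs outside the cell, had 0 reads. The most abundant genes of the list were RHEB (234 TPM), which activates mTOR, and IGF2BP3 (68.3 TPM), an RNA-binding protein named for its binding of IGF2 mRNA. FOXO3, a transcription factor held in check by AKT, was the 1 of the 33 with groups that did not overlap, a smaller share than the 7.71% of all genes. It was at 4.47 ± 0.327 CPM in controls and 7.12 ± 1.33 CPM when heated, a log2 fold change of 0.67 (95% interval 0.12 to 1.22, adjusted p = 0.999923 with edgeR).

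Among 24 genes that set or protect imprints, 21 were tested and 0 called, with 10 above 0, 11 below and a median of -0.01. The maintenance methyltransferase gene DNMT1 (2077 TPM), DPPA3 (1756 TPM), which shields methylation of the maternal genome, and ARID4A (207.5 TPM) and ARID4B (29.7 TPM), cofactors of imprint control, were the most abundant. ZFP57, which binds methylated imprint control regions, had 22, 19 and 10 reads in controls and 11, 5 and 7 when heated, overlapping at 10 and 11, with a log2 fold change of -1.22 (95% interval -2.52 to 0.09). ZNF445, which shares that role, was at 18.8 ± 6.85 and 20.1 ± 5.08 CPM. HELLS, a chromatin remodeller needed for DNA methylation, was at 47.4 ± 1.23 CPM in controls and 41.0 ± 4.73 CPM when heated, lower in every heated library in CPM but overlapping on the library-total and TPM scales.

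The genes most like IGF2 over the 6 libraries, by Pearson r of log2 CPM, were LRGUK (0.98), LOC110259223 (0.98), PROM1, LOC100520424 and LOC110258488 (each 0.98). As IGF2 was chosen for its difference between temperatures, genes with the same difference head this list. By this measure 119 genes reached 0.9. The lncRNA LOC110259223 is the 1 of the 5 that lies in the same cluster. By deviations from the group means the 5 most alike were FREM3, AGAP3, PHF10, WRAP73 and GALNT4, each with an r of 0.99 or more, from so few points that 268 genes reached 0.9. CDKN1C had an r of 0.77 to IGF2 over the libraries and -0.39 in the deviations within groups.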

How the data were processed

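The authors deposited a table of read counts, FPKM and TPM per gene for 6 libraries, per the file headers, and a table per library with coverage, FPKM, TPM, strand and position. The deposited coverage signal was not used. StringTie 2.1.3b, HISAT2 2.1.0, Trimmomatic 0.38, Bowtie2, HISAT and the build Sscrofa11.1 are listed without roles, per the submitters' processing notes. Which tool counted reads, and how overlapping genes were handled, remains not given in the sources used here. Each column of the table matched the FPKM of its own library's table for all 10 imprinted genes within 1e-05.

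Libraries were grouped by their titles. Counts as deposited were fitted with edgeR 4.0.16 (R 4.3.3), quasi-likelihood test, TMM scaling, default filter, group as the single term, threshold 0.05 after Benjamini-Hochberg adjustment over 16056 genes. CPM use TMM-scaled library sizes, and 95% intervals come from that fit. The 24 rows with a transcript identifier but no symbol, all typed as tRNA or rRNA in the table, held 0.527% to 0.658% of the counts and stayed in. Total counts were 28114005 to 30079385 per library. Floors from reads cover counting error only, while the 95% intervals also take in the spread between libraries. Libraries of a group differed by more than sampling noise (chi-square per degree of freedom 34.7 to 203). Chromosomes come from a RefSeq table of Sscrofa11.1, in which all 10 genes have the position of the files.

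The members and lists were chosen with earlier results of these data known. All members are named. From each list the 4 genes of highest mean TPM and those with groups that do not overlap are named, with the 5 genes most like IGF2. Some genes that this rule names are not reported here. Other genes were named after their values were seen. Alternatives were DESeq2 1.42.0, other scalings, no filter, the replicate block, log2(FPKM + 1), log2(TPM + 1) and log2(TPM + 0.1), and leaving out each library.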

Additional observations from a re-analysis of the deposited data

How the results depend on the processing

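The count of genes called was 0 in the edgeR fit and 0 without each library in turn, and it was 5 with DESeq2, 3 with the replicate block and 1 when low counts were not filtered, none of them among the 10 imprinted genes. Same-numbered libraries had correlations of 0.516, 0.008 and 0.586 in their deviations. Control replicate 1 and high-temperature replicate 3 had -0.566, and control replicate 3 and high-temperature replicate 1 had -0.521. Control replicate 2 was near 0 with every heated library (-0.0922, 0.008 and 0.0791). The main fit did not take the numbers as pairs, and whether they mark pairs was not tested. With the replicate block 1485 genes had an unadjusted edgeR p under 0.05, against 297 in the main fit. The log2 fold change was then 1.71 for IGF2 (adjusted p = 0.299 with edgeR) and 0.54 for CDKN1C (adjusted p = 0.413 with edgeR). The direction of IGF2, CDKN1C and IGF2R was above 0 in all 14 alternatives. For IGF2, chosen for this difference, and CDKN1C the groups do not overlap. Leaving out a library could therefore not turn their direction, and its constancy is no support. IGF2R fell to 0.004 without high-temperature replicate 3. The range was 0.45 to 0.65 for CDKN1C, and without each library 1.496 to 1.94 for IGF2. IGF2 gave 0.24 as log2(FPKM + 1) and 1.24 as log2(TPM + 0.1), where the pseudocount shrinks low values. MEST, PEG10 and PLAGL1 were below 0 in 2, 3 and 2 of 14 alternatives, PEG3 above 0 in 1 of 14 and GRB10 in 2 of 12. In the order of levels 8 of 10 genes had the same rank as log2(FPKM + 1) and 8 as log2(TPM + 1). The 2 members higher in every heated library were the same under the scalings added after the data were seen. The precision of IGF2R, GRB10, NNAT and DLK1 is limited by at most 19 reads in any library.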

Other observations

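A locus that overlaps MEST differed from it. LOC110257546 shares 4999 bases with MEST on the opposite strand. It was at 0.756 ± 0.156 CPM in controls and at 0.270 ± 0.121 CPM in heated libraries (SD, n = 3), with 4 to 26 reads per library, a log2 fold change of -1.47 (95% interval -2.65 to -0.29) and no call by edgeR. Its reads cannot be told apart from those of MEST or COPG2 by strand.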
